A study of Arabidopsis thaliana with 9 samples.

Results

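The comparison sets 3 arrays of the ebs mutant of Arabidopsis thaliana against 3 arrays of its wild type, 6 of the 9 arrays in the study, all chosen by their genotype labels. Every plant was of the Landsberg erecta (Ler) accession, and each array held RNA from complete seedlings of a separate pool, which the labels call biologically independent. Seedlings grew on solid MS medium for 18 days with 8 h of light and 16 h of darkness a day, and received no treatment. According to the submitters the ebs mutant has no EBS expression. The sources used here do not give the ebs allele or the number of lines it stands for. The remaining 3 arrays came from the shl-2 mutant (in places labelled shl-2-2), which the submitters describe as having no SHL expression. They entered the same fit, which gave all groups a shared estimate of the spread, and they served for the direct difference between ebs and shl-2.

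EBS and SHL are closely related plant chromatin proteins. Each has a PHD finger, a fold that binds methylated histone tails, and a BAH domain, and both are known as repressors of flowering genes. Loss of EBS is known for early flowering, above all in short days. Signals are log2 values made by the robust multi-array average (RMA), so a difference of 1 is a 2-fold change. Differences are given as ebs minus wild type with limma's standard error (SE), and p-values were adjusted over all 22746 probe sets tested. In lists, a measured gene is one matched by locus, symbol or synonym. In families it is one matched by a text pattern in its symbol or synonyms. The lists were written with earlier results of these data known. They held 808 entries, and 104 different genes were matched. Other genes of a list or family may be on the array under a locus identifier alone or without a name, and were not examined as its members.

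The medians of the 9 arrays lay between 6.06 and 6.12. Correlations over probe sets were 0.992 to 0.997 within wild type and within ebs and 0.988 to 0.994 between ebs and wild type arrays. The median signal was 6.10 ± 0.01 (SD, n = 3) in wild type and 6.10 ± 0.02 (SD, n = 3) in ebs (exact permutation p = 1, two-sided, and 0.1 is the smallest this design can give). Precision is limited by the 3 arrays per group. EBS itself had no probe set with its name and was not analysed here, so the mutant label could not be checked through its target. SHL1, the gene of the related reader, stood at 7.88, 8.02 and 7.88 in wild type and at 8.08, 7.82 and 7.81 in ebs, and these overlapping arrays differed by -0.02 (SE 0.19, limma adjusted p = 0.973). On the shl-2 arrays SHL1 read 7.46, 6.91 and 6.52, a difference from wild type of -0.96 (limma adjusted p = 0.0182). The SHL1 signal in shl-2 was thus lowered but stayed above the array medians, although the submitters describe no SHL expression. The reason was not tested.

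In ebs 391 probe sets were raised (1.72% of those tested) and 335 were lowered (1.47%) at a limma adjusted p under 0.05. The raised side reached further. A change of at least 2-fold was found for 116 raised probe sets (0.51%) and for 28 lowered ones (0.123%), and the median difference was 0.76 among the raised and -0.56 among the lowered. In all 726 called probe sets (3.19%) the arrays of ebs and of wild type did not overlap, as was the case for 19.9% of all probe sets tested. Named genes gave 376 calls, 2.82% of 13355, with 208 raised (1.56%) and 168 lowered (1.26%). These shares are the background for all counts of list and family members given below. Probe sets of several genes gave 13 calls (2.58%). With all probe sets divided by wild type signal into 4 bins of like size, the raised ones numbered 25, 130, 123 and 113 from the dimmest to the brightest bin, and the lowered ones 3, 54, 129 and 149. Wild type array 2 was the lowest wild type array for 197 of the 391 raised probe sets, against 90 for array 1 and 104 for array 3. The same array was the highest wild type array for 196 of the 335 lowered ones, against 58 and 81. Without it 265 probe sets were called (limma adjusted p under 0.05), without wild type array 3 there were 416, without ebs array 1 there were 264, and without ebs array 3 there were 306. Of 146 called genes and unnamed probe sets followed, 69 lost their call without wild type array 2. Without ebs array 1 the loss was 72, and without ebs array 3 it was 67. How often wild type array 2 was the extreme wild type array over all probe sets was not counted. The reason for its standing was not tested. In RNA from whole seedlings, fewer cells of a type and less RNA per cell cannot be told apart.

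**Figure D1:**
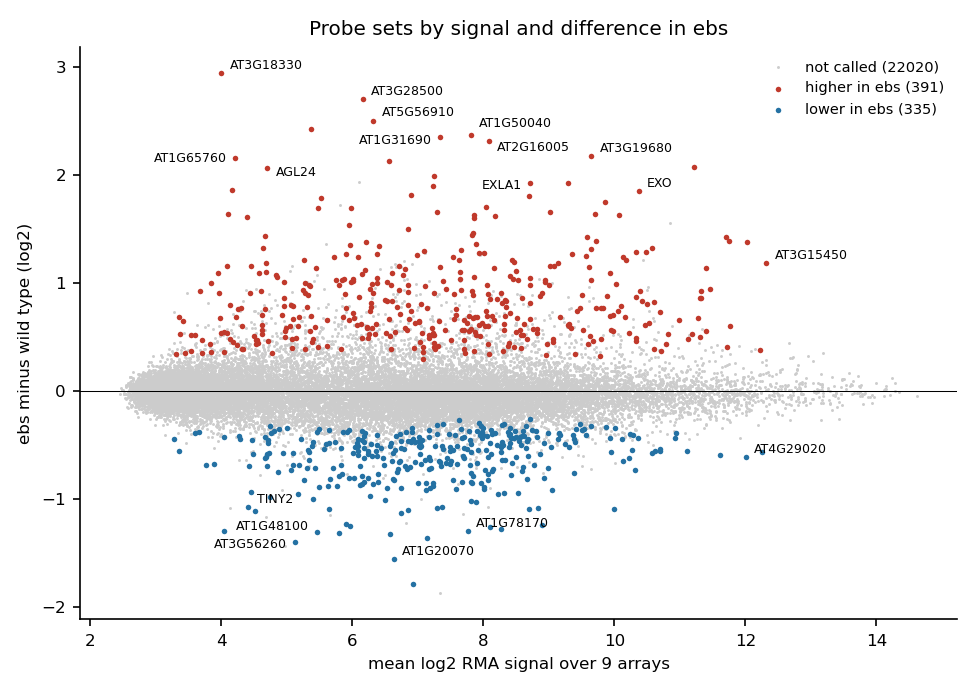
Each point is 1 of 22746 probe sets, with the mean log2 signal over the 9 arrays on the x axis and the log2 difference of ebs minus wild type on the y axis. Red points are the 391 raised and blue points the 335 lowered probe sets at a limma adjusted p under 0.05, which reach 2.94 and -1.79, and grey points were not called.

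Of the flowering regulators measured by name, AGL24 was raised most. This MADS-box gene promotes the floral transition and marks young inflorescence meristems. AGL24 read 3.97, 3.94 and 3.88 on the wild type arrays, 5.88, 6.68 and 5.43 on the ebs arrays and 4.07, 4.1 and 4.36 on those of shl-2. The ebs arrays stood above all 6 others. The difference from wild type was 2.07 (SE 0.25, limma adjusted p = 0.00241), a 4.19-fold change, and the difference from shl-2 was 1.82 (limma adjusted p = 0.0101, and 0.0511 without shl-2 array 1). AGL24 was the 1 raised gene of 6 measured floral promoters (median difference 0.11) and of 42 measured MADS-box genes (median -0.01), against a median of -0.02 over all probe sets tested. AGL19, its relative among the floral promoters, read 2.97, 2.91 and 2.99 on the wild type arrays and 3.18, 3.28 and 3.41 on the ebs arrays, a difference of 0.33 (SE 0.08, limma adjusted p = 0.0625). These signals lie at the dim end of the array and the groups did not overlap, but the call was missed.

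Among 4 measured floral repressors (median -0.10), SMZ, an AP2-type repressor of flowering, was lowered. SMZ went from 6.5, 6.64 and 6.52 in wild type to 6.21, 5.78 and 5.80 in ebs, a difference of -0.62 (SE 0.14, limma adjusted p = 0.0491). This call ended in 7 of the 9 fits that left out 1 array, namely those without any one wild type array, without ebs array 2 or 3, and without shl-2 array 1 or 2, where the adjusted p reached 0.166. The 1 measured gene of floral organ identity and the 4 measured genes of meristem and leaf polarity were not called (medians 0.17 and 0.06).

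Further regulators of meristems and organ growth, grouped after their values were seen, moved both ways. IDD16, an INDETERMINATE-domain zinc finger gene of organ growth, read 3.98, 4.27 and 4.31 on the wild type arrays, 5.21, 5.46 and 5.17 on the ebs arrays and 4.17, 4.17 and 4.39 on those of shl-2. It was raised by 1.09 (SE 0.12, limma adjusted p = 0.00145), and it stood above shl-2 by 1.04 (limma adjusted p = 0.0031). YAB5, a YABBY gene expressed on the lower side of lateral organs, read 7.24, 7.42 and 7.13 on the wild type arrays, 6.06, 6.58 and 6.58 on the ebs arrays and 7.53, 7.16 and 7.36 on those of shl-2. All 3 ebs arrays lay below the 6 others. YAB5 fell by 0.86 (SE 0.15, limma adjusted p = 0.0166, and 0.0831 without wild type array 2) and lay -0.94 from shl-2 (limma adjusted p = 0.0227, and up to 0.0923 without ebs array 1 or shl-2 array 1 or 3). It was the 1 gene among the 25 most lowered that was below shl-2.

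ULT1, a trithorax-type factor that limits meristem activity, rose by 0.80 (SE 0.14, limma adjusted p = 0.0135) from values of 6.38 to 6.41 in wild type to 7.14 to 7.24 in ebs. That call ended without wild type array 2 or 3 or ebs array 1 or 3, with an adjusted p up to 0.0626. RR16, a type-A response regulator of cytokinin signalling, read 5.32, 5.84 and 5.81 on the wild type arrays and 4.94, 4.81 and 5.07 on the ebs arrays. Its difference of -0.72 (SE 0.14, limma adjusted p = 0.0279) was lost without wild type array 2 or 3 or any ebs array, with an adjusted p up to 0.115. CYP78A9, a cytochrome P450 that promotes organ growth, was lowered in ebs, with a difference of -0.52 (SE 0.10, limma adjusted p = 0.026) and lay above shl-2 by 0.77 (limma adjusted p = 0.00896). Its call against wild type ended without any one wild type array or without ebs array 1 or 3, with an adjusted p up to 0.106.

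Of the 25 most raised named genes, 12 were also above shl-2. Some of these were dim in wild type, and in shl-2 they stayed near the wild type level. Over all 391 raised probe sets the median signal stood 0.78 to 0.89 above wild type on the ebs arrays and 0.66 to 0.81 above it on the shl-2 arrays. The wild type arrays enter both values, and the 391 were chosen by their difference in ebs. Of the 391 raised probe sets, 63 were also above shl-2 at a limma adjusted p under 0.05, beside 0.501% of all probe sets tested that were higher in ebs than in shl-2. The same ebs arrays enter both comparisons, so the 63 were chosen in part by the values tested. By bin of wild type signal they numbered 13, 29, 18 and 3 from dimmest to brightest. Their median difference was 1.03 against wild type, while shl-2 minus wild type had a median of 0.01 over them. Among the 116 probe sets raised at least 2-fold, 34 were above shl-2, and among the 28 lowered at least 2-fold, 3 were below it. Of the 38 named genes among the 63, 35 (92.1%) are known here by a locus identifier alone, beside 88.3% of all measured named genes, and they are given without a role because the annotation used holds none. AGL24 and IDD16 above are 2 of the other 3.

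The largest rise of a named gene was that of AT3G18330. Its signals read 3.19, 2.74 and 2.95 on the wild type arrays, 5.98, 5.79 and 5.94 on the ebs arrays and 3.54, 2.95 and 2.90 on those of shl-2. No array of either other genotype came near the ebs arrays. The difference was 2.94 (SE 0.17, limma adjusted p = 6.72e-05), a 7.69-fold change, and 2.77 against shl-2 (limma adjusted p = 6.53e-05). The probe set of AT3G18330 is of a type that can detect several similar transcripts, as is that of AT2G07140. AT1G65760 showed the same pattern, with 3.55, 3.42 and 3.76 on the wild type arrays, 5.71, 5.98 and 5.50 on the ebs arrays and 3.28, 3.24 and 3.45 on those of shl-2. It differed from wild type by 2.15 (SE 0.13, limma adjusted p = 8.14e-05) and from shl-2 by 2.41 (limma adjusted p = 6.53e-05). AT2G07140 rose by 1.71 (SE 0.13, limma adjusted p = 0.000299) from a brighter level of 7.65, 7.16 and 7.37 to 9.30, 9.08 and 8.92, with shl-2 at 7.73, 7.63 and 7.51.

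**Figure D2:**
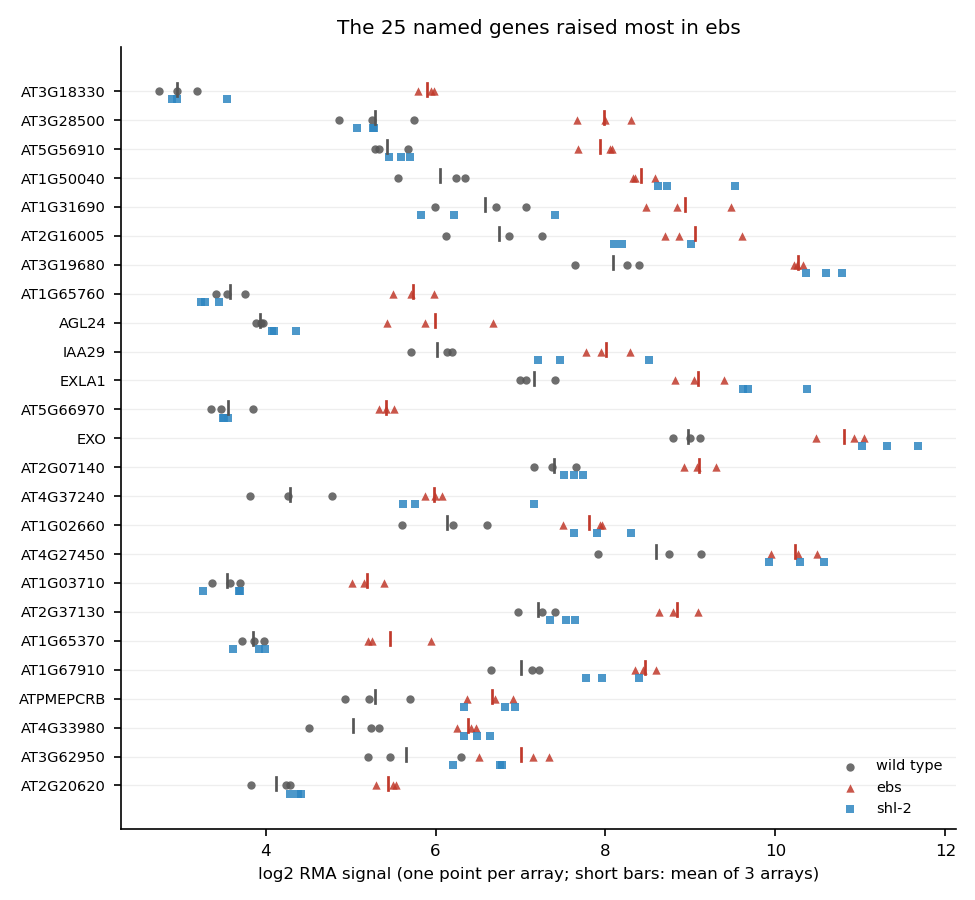
Points are the log2 signals of the single arrays of wild type, ebs and shl-2 for the 25 named genes with the highest differences of ebs minus wild type, which run from 2.94 to 1.32, and short bars mark the means of the 3 wild type and the 3 ebs arrays. In 12 of the 25 genes, among them AT3G18330 and AGL24, ebs was also above shl-2.

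AT3G28500 read 4.86, 5.25 and 5.74 on the wild type arrays, 7.66, 8.30 and 7.99 on the ebs arrays and 5.28, 5.08 and 5.26 on those of shl-2. Here too the ebs arrays were apart from both other genotypes, by 2.70 from wild type (SE 0.21, limma adjusted p = 0.000299), a 6.5-fold change, and by 2.78 from shl-2 (limma adjusted p = 0.000378). AT5G56910 read 5.68, 5.29 and 5.33 on the wild type arrays, 7.68, 8.08 and 8.05 on the ebs arrays and 5.59, 5.45 and 5.70 on those of shl-2. Its difference was 2.50 (SE 0.14, limma adjusted p = 5.79e-05), a 5.67-fold change, and 2.36 against shl-2 (limma adjusted p = 6.53e-05). AT1G03710 rose by 1.64 (SE 0.14, limma adjusted p = 0.000426) from 3.37, 3.58 and 3.70 to 5.02, 5.39 and 5.16, while shl-2 lay at 3.70, 3.26 and 3.68. In all 3 of these genes shl-2 lay near wild type.

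AT1G31690 and AT1G31710, neighbours on chromosome 1 among the measured genes, were both raised. AT1G31690 read 5.99, 6.71 and 7.06 on the wild type arrays, 8.84, 9.48 and 8.48 on the ebs arrays and 5.83, 6.22 and 7.40 on those of shl-2. Spread within wild type and shl-2 was wide, yet the ebs arrays stood above both. The rise was 2.35 (SE 0.41, limma adjusted p = 0.0151, and up to 0.062 without wild type array 2 or ebs array 1), or 5.09-fold. A second probe set of AT1G31690 rose by 1.43 (SE 0.18, limma adjusted p = 0.00326) and was above shl-2 by 1.67 (limma adjusted p = 0.00293). The first was above shl-2 by 2.45 (limma adjusted p = 0.0264), which was lost without wild type array 2, any one of the ebs arrays or shl-2 array 1 or 2, with an adjusted p up to 0.113. AT1G31710 read 7.84, 7.91 and 7.97 on the wild type arrays, 8.92, 8.82 and 8.70 on the ebs arrays and 8.10, 8.13 and 7.99 on those of shl-2, a rise of 0.91 (SE 0.08, limma adjusted p = 0.000457).

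AT2G37130 read 7.41, 6.97 and 7.25 on the wild type arrays, 8.63, 8.80 and 9.09 on the ebs arrays and 7.53, 7.35 and 7.64 on those of shl-2, a rise of 1.63 (SE 0.14, limma adjusted p = 0.000426). AT1G65370 rose by 1.61 (SE 0.18, limma adjusted p = 0.00184) from 3.86, 3.72 and 3.98 to 5.21, 5.94 and 5.25. In both genes ebs was also above shl-2, by 1.33 and 1.62 (limma adjusted p = 0.00275 and 0.0031). AT5G66970 and AT2G20620 were above both other genotypes as well, with differences from wild type of 1.86 and 1.32 and from shl-2 of 1.90 and 1.08. Apart from the first probe set of AT1G31690 and AGL24, the genes of the 25 most raised that were above shl-2 kept that call in all 9 leave-one-out fits. GSTF4, a glutathione transferase gene and the third with a symbol among the 38, rose by 0.47 (SE 0.10, limma adjusted p = 0.0366) and stood 0.61 above shl-2 (limma adjusted p = 0.0256). Its call against wild type ended without wild type array 1 or 3, any one of the ebs arrays or shl-2 array 1 or 2 (limma adjusted p up to 0.107), and that against shl-2 in 7 fits, all but those lacking wild type array 1 or 2 (up to 0.0979). It was the 1 raised of 13 measured glutathione transferase genes (median 0.05).

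**Figure D3:**
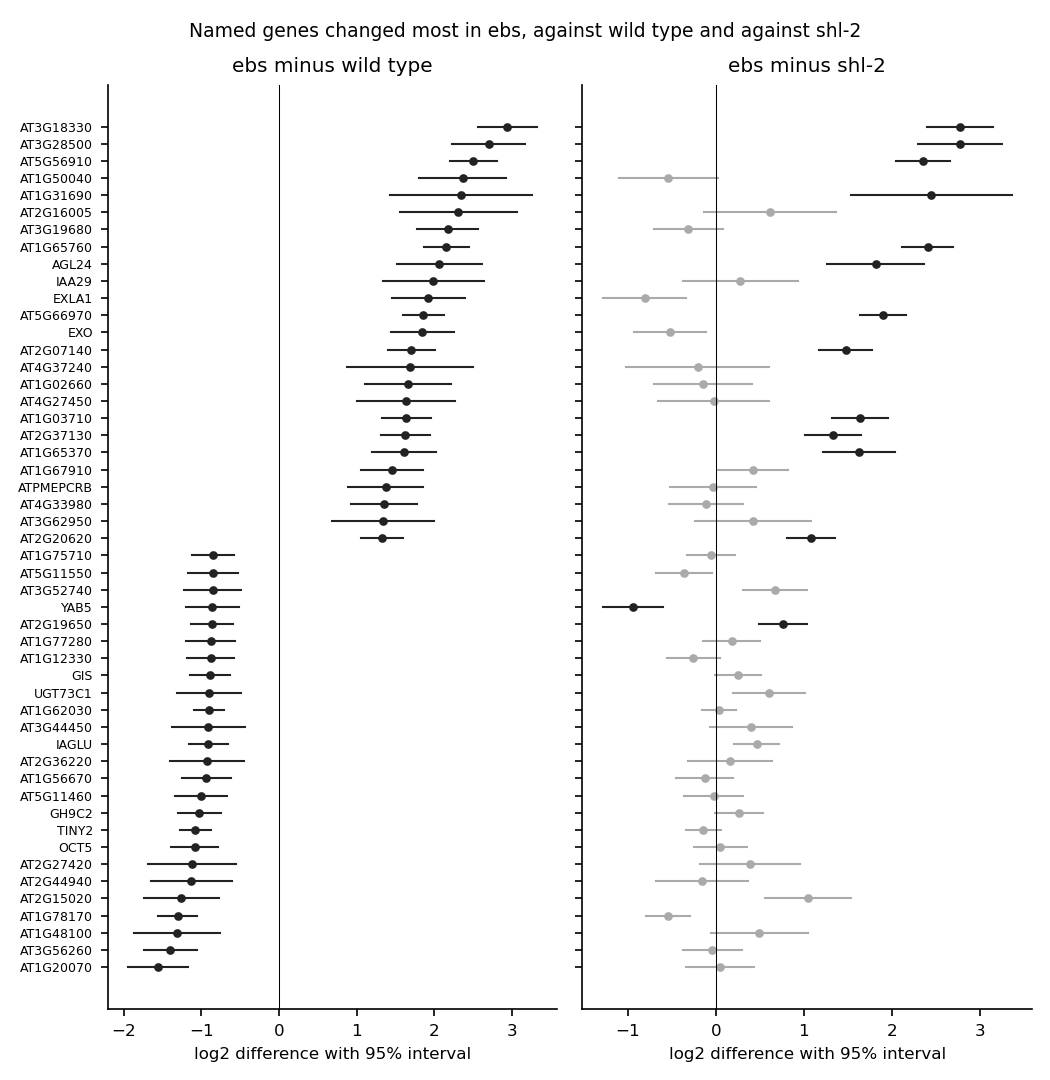
For the 25 named genes raised most and the 25 lowered most in ebs, points are the log2 differences of ebs minus wild type (left panel) and of ebs minus shl-2 (right panel) with 95% intervals, black where the limma adjusted p is under 0.05 and grey elsewhere. The same ebs arrays enter both panels, and in the right one 12 raised genes lie above 0 in black, while YAB5 lies below 0 and AT2G19650 above it.

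A second set of strongly raised genes was also high in shl-2. AT1G50040 read 6.35, 5.56 and 6.24 on the wild type arrays, 8.58, 8.35 and 8.32 on the ebs arrays and 8.72, 8.62 and 9.52 on those of shl-2. AT3G19680 read 8.39, 7.64 and 8.25 on the wild type arrays, 10.33, 10.26 and 10.22 on the ebs arrays and 10.60, 10.36 and 10.78 on those of shl-2. In both genes wild type array 2 was the lowest and the arrays of the mutants lay together. Their rises in ebs were 2.37 (SE 0.25, limma adjusted p = 0.00145) and 2.18 (SE 0.18, limma adjusted p = 0.000339), and ebs minus shl-2 was -0.54 and -0.31 without a call (limma adjusted p = 0.498 and 0.598). AT2G16005 rose by 2.31 (SE 0.34, limma adjusted p = 0.00654), and AT1G02660 by 1.66 (SE 0.25, limma adjusted p = 0.00776). ebs minus shl-2 was 0.62 and -0.14 in these genes (limma adjusted p = 0.575 and 0.896). AT4G33980 read 5.33, 4.51 and 5.24 on the wild type arrays, 6.42, 6.25 and 6.47 on the ebs arrays and 6.64, 6.49 and 6.33 on those of shl-2, a rise of 1.35 (SE 0.19, limma adjusted p = 0.0054). AT1G67910 rose by 1.46 (SE 0.18, limma adjusted p = 0.00277).

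Auxin genes moved in both directions. Of 8 measured auxin response genes 3 were raised and none was lowered (median 0.54), while of 9 measured genes annotated as auxin-related 1 was raised and 1 was lowered (median -0.05). The auxin response list was written with earlier results of these data known, so its count and median were set in part by the choice of members. Of all measured named genes, 1.56% were raised and 1.26% lowered. IAA29, an Aux/IAA repressor gene induced by auxin and shade, read 6.19, 5.71 and 6.14 on the wild type arrays, 7.77, 8.29 and 7.95 on the ebs arrays and 7.21, 7.46 and 8.51 on those of shl-2, a rise of 1.99 (SE 0.29, limma adjusted p = 0.00721) or 3.97-fold. HAT2, an auxin-induced homeobox gene, rose by 0.69 (SE 0.11, limma adjusted p = 0.00964, and 0.0504 without ebs array 1). WES1, whose enzyme joins auxin to amino acids, rose by 0.71 (SE 0.14, limma adjusted p = 0.0306), a call lost without wild type array 2 or 3, ebs array 1 or 3 or shl-2 array 2, with an adjusted p up to 0.108. YUC2, a flavin monooxygenase gene of auxin synthesis, read 5.92, 5.83 and 6.07 on the wild type arrays and 6.43, 6.43 and 6.53 on the ebs arrays. Its rise of 0.52 (SE 0.10, limma adjusted p = 0.0244) was lost without wild type array 1 or 2 or ebs array 1 or 3, with an adjusted p up to 0.103. IAGLU, whose enzyme joins glucose to indole-3-acetic acid, fell by 0.91 (SE 0.11, limma adjusted p = 0.00317) from 8.40, 8.46 and 8.16 to 7.68, 7.31 and 7.31. UGT74D1, another glucosyltransferase gene for auxins, fell by 0.57 (SE 0.12, limma adjusted p = 0.0358), lost without any one wild type array, ebs array 2 or 3 or shl-2 array 1 or 2, with an adjusted p up to 0.135.

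Some genes of cell wall loosening and cell growth were raised. A list for brassinosteroid and growth had 4 measured members of 27, the growth genes EXO, EXLA1, EXLA2 and EXLB1. All 4 were raised (median 1.56), beside 1.56% of all measured named genes. The list was written with earlier results of these data known. Its count and median were therefore set in part by the choice of members. No gene of brassinosteroid synthesis or signalling was among the 4. EXLA1, an expansin-like gene, read 7.41, 6.99 and 7.07 on the wild type arrays, 9.39, 8.82 and 9.04 on the ebs arrays and 9.68, 9.62 and 10.37 on those of shl-2, a rise of 1.93 (SE 0.21, limma adjusted p = 0.00163) or 3.80-fold. EXO, a brassinosteroid-induced gene that promotes leaf growth, read 9.11, 8.79 and 9.0 on the wild type arrays, 11.04, 10.48 and 10.92 on the ebs arrays and 11.31, 11.02 and 11.68 on those of shl-2, a rise of 1.85 (SE 0.18, limma adjusted p = 0.000944) or 3.6-fold. The ebs arrays of both genes lay above every wild type array and below most shl-2 arrays. EXLA2 rose by 1.27 (SE 0.16, limma adjusted p = 0.00342) from 5.30, 5.28 and 5.43 to 6.66, 6.61 and 6.54. EXLB1 rose by 0.62 (SE 0.14, limma adjusted p = 0.0488), a call kept in 1 of the 9 fits, that without ebs array 3, with an adjusted p up to 0.131 in the others, and a call also lost with each array centred on its median or with quantile normalization repeated. The 3 raised expansin-type genes were the same EXLA1, EXLA2 and EXLB1, out of 19 measured genes annotated as expansins or expansin-like (median 0.10).

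Enzymes of the wall matrix moved in both directions. EXGT-A3, a xyloglucan endotransglucosylase gene, rose by 0.68 (SE 0.10, limma adjusted p = 0.00595) from 10.93, 10.66 and 10.66 to 11.53, 11.33 and 11.42. XTH32, of the same enzyme family, fell by 0.55 (SE 0.13, limma adjusted p = 0.0496), and its call ended without any one wild type or ebs array or without shl-2 array 1, with an adjusted p up to 0.173. These were the 2 called genes of 11 annotated with xyloglucan (median 0.23). ATPMEPCRB, a pectin methylesterase gene, read 5.70, 5.22 and 4.93 on the wild type arrays and 6.91, 6.70 and 6.37 on the ebs arrays, a rise of 1.38 (SE 0.22, limma adjusted p = 0.00968, and up to 0.0512 without wild type array 2 or ebs array 1). It was the 1 called of 4 measured genes with pectin in their symbol or synonyms (median 0.17). Pectin genes known here by a locus identifier alone were not counted, so the direction of the family as a whole is not shown. CSLA03, of a family that makes glucomannans, read 8.06, 7.46 and 7.26 on the wild type arrays and 8.44, 8.43 and 8.44 on the ebs arrays, a rise of 0.84 (SE 0.19, limma adjusted p = 0.0455). Its call ended in 7 of the 9 fits, all but those lacking wild type array 1 or shl-2 array 3, with an adjusted p up to 0.158.

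On the lowered side, GH9C2, an endoglucanase gene, fell by 1.03 (SE 0.12, limma adjusted p = 0.00257) from 8.51, 8.78 and 8.67 to 7.40, 7.86 and 7.62. CSLC5, of a family that makes the xyloglucan backbone, fell by 0.70 (SE 0.12, limma adjusted p = 0.0129), which was lost without wild type array 2 or ebs array 1 or 3, with an adjusted p up to 0.0635.

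Some genes for cell surface receptors and a signalling peptide, grouped after their values were seen, changed too. THE1, a malectin-type receptor kinase that monitors the cell wall, read 6.69, 6.74 and 6.75 on the wild type arrays, 7.66, 7.56 and 7.64 on the ebs arrays and 8.28, 7.98 and 8.67 on those of shl-2. These 3 groups did not overlap and ebs lay between the others. The rise in ebs was 0.89 (SE 0.14, limma adjusted p = 0.0098, and 0.0508 without ebs array 1), and ebs minus shl-2 was -0.69 (limma adjusted p = 0.0653). RALFL22, of a peptide family perceived by kinases of this type, rose by 0.86 (SE 0.16, limma adjusted p = 0.0236), lost without any one wild type array or ebs array 1 or 3, with an adjusted p up to 0.0955. EMS1, a receptor kinase best known from anthers, fell by 0.48 (SE 0.08, limma adjusted p = 0.0098, and 0.0533 without ebs array 1). CR4, a receptor kinase of the epidermis, fell by 0.42 (SE 0.07, limma adjusted p = 0.0129), lost without wild type array 2 or ebs array 1 or 3, with an adjusted p up to 0.0639.

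Some transcripts tied to cold and to energy status, grouped after their values were seen, were raised. COR27, a cold-induced repressor gene linked to the clock and to flowering time, read 5.47, 5.14 and 4.84 on the wild type arrays and 6.02, 5.81 and 6.32 on the ebs arrays, a rise of 0.90 (SE 0.17, limma adjusted p = 0.0229), lost without wild type array 2 or 3 or ebs array 1 or 3, with an adjusted p up to 0.0913. AKINBETA1, a subunit gene of the energy-sensing kinase SnRK1, read 8.29, 7.57 and 8.09 on the wild type arrays and 8.94, 8.98 and 9.17 on the ebs arrays. It rose by 1.05 (SE 0.18, limma adjusted p = 0.0137) and its call ended without ebs array 1 or 3, with an adjusted p up to 0.0617. ATG8E, a gene of autophagosome formation, rose by 0.63 (SE 0.10, limma adjusted p = 0.0108), also lost without ebs array 1 or 3, with an adjusted p up to 0.0572. COR47, a dehydrin gene, was the 1 called of 4 measured cold, drought and abscisic acid genes. Their differences, 2 positive and 2 negative, ran from -0.23 to 0.41 (median 0.14). COR47 rose by 0.41 (SE 0.09, limma adjusted p = 0.037) from bright signals, a call lost without any one wild type or ebs array, with an adjusted p up to 0.132.

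Bright genes were among the raised ones as well, and so were some transcription factor genes of lower signal. AT3G15450 read 12.28, 11.02 and 11.35 on the wild type arrays and 12.91, 12.53 and 12.77 on the ebs arrays. Wild type array 1 stood close to the ebs arrays, and the rise of 1.19 (SE 0.27, limma adjusted p = 0.0435) ended in 7 of the 9 fits, all but those lacking wild type array 1 or shl-2 array 3, with an adjusted p up to 0.144. AT4G27450 rose by 1.64 (SE 0.28, limma adjusted p = 0.0143, and up to 0.0643 without ebs array 1 or 3). BZIP53, a bZIP factor gene known from low-energy responses, read 9.27, 9.08 and 9.22 on the wild type arrays and 9.91, 10.05 and 9.92 on the ebs arrays, a rise of 0.77 (SE 0.12, limma adjusted p = 0.00794). It was 1 of 2 raised among 22 measured bZIP genes (median 0.04). BZIP34, the other, rose by 0.77 (SE 0.15, limma adjusted p = 0.0265), lost without wild type array 1 or 2 or any ebs array, with an adjusted p up to 0.11. WRKY22, a WRKY factor gene of defence and darkness responses, read 6.44, 5.39 and 5.79 on the wild type arrays and 7.21, 6.77 and 7.11 on the ebs arrays. It was the 1 raised of 7 measured WRKY genes (median 0.02), with a difference of 1.16 (SE 0.24, limma adjusted p = 0.0299) that lost its call without wild type array 2 or 3, ebs array 1 or 3 or shl-2 array 1 (up to 0.117).

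Some genes of ubiquitin ligases, grouped after their values were seen, changed in both directions. No count over the whole family is given. PUB25, a U-box ubiquitin ligase gene, rose by 0.91 (SE 0.12, limma adjusted p = 0.00385) from 5.77, 5.62 and 5.62 to 6.67, 6.39 and 6.67. Its close relative PUB26 rose by 0.39 (SE 0.08, limma adjusted p = 0.035), a call lost without any one wild type or ebs array, with an adjusted p up to 0.116. XERICO, a RING-type gene linked to abscisic acid, fell by 0.42 (SE 0.08, limma adjusted p = 0.0185), lost without wild type array 2 or ebs array 1 or 2, with an adjusted p up to 0.0833. AFR, an F-box gene of far-red light signalling, read 7.33, 7.64 and 7.62 on the wild type arrays and 6.82, 6.83 and 6.90 on the ebs arrays, a difference of -0.68 (SE 0.09, limma adjusted p = 0.0052). HWS, an F-box regulator of organ boundaries, fell by 0.58 (SE 0.10, limma adjusted p = 0.0117, and 0.0522 without ebs array 3).

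The lowered genes were fewer at large size. The strongest fall of a named gene was that of AT1G20070, from 7.28, 8.05 and 7.73 in wild type to 5.96, 6.29 and 6.14 in ebs, with shl-2 at 6.02, 5.97 and 6.24. The difference was -1.56 (SE 0.17, limma adjusted p = 0.00169), a 2.94-fold lower level. The 25 most lowered named genes ran from -1.56 to -0.85. Of these 25, 14 kept their call in all 9 leave-one-out fits, against 20 of the 25 most raised. AT3G56260 and AT1G78170 differed by -1.40 (SE 0.15, limma adjusted p = 0.00156) and -1.30 (SE 0.11, limma adjusted p = 0.000426). AT1G48100 read 5.81, 6.91 and 6.78 on the wild type arrays and 5.19, 5.37 and 5.01 on the ebs arrays, a difference of -1.31 (SE 0.25, limma adjusted p = 0.0226). That call ended without wild type array 2 or 3 or ebs array 1 or 3, with an adjusted p up to 0.0913. OCT5, a gene of the organic cation and carnitine transporter family, fell by 1.08 (SE 0.14, limma adjusted p = 0.00312) from 7.97, 8.28 and 7.83 to 7.18, 6.75 and 6.90.

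**Figure D4:**
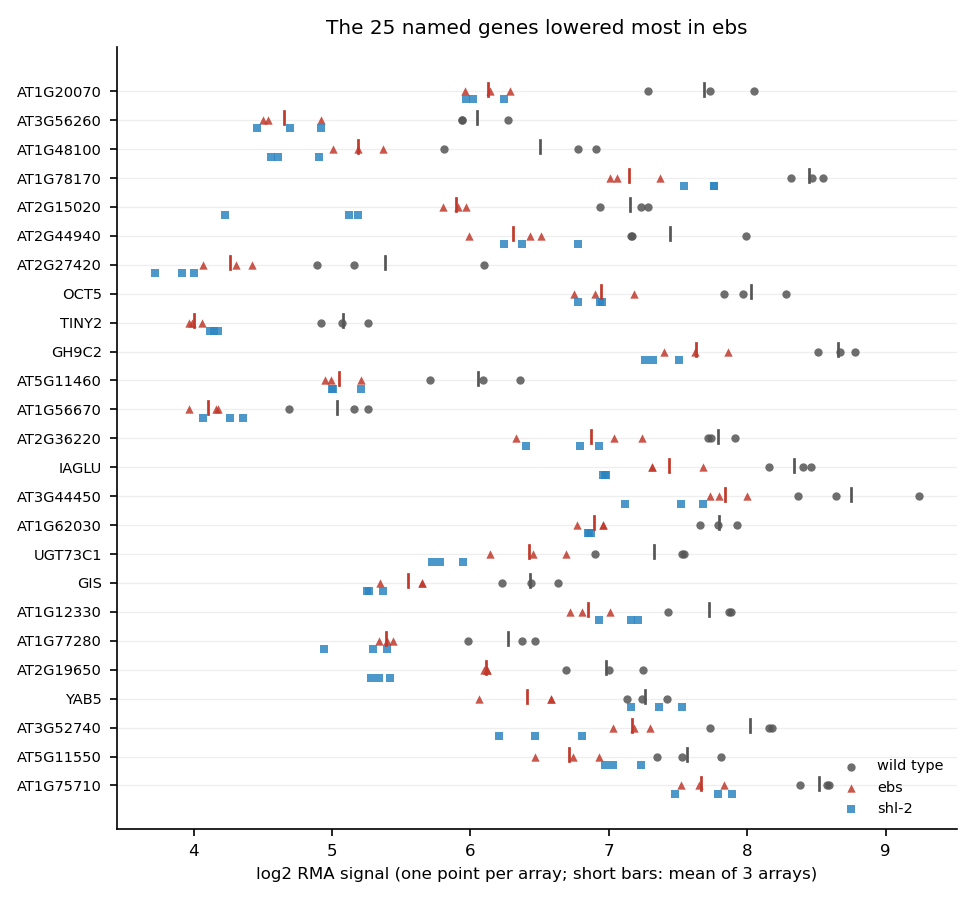
Points are the log2 signals of the single arrays of wild type, ebs and shl-2 for the 25 named genes with the lowest differences of ebs minus wild type, which run from -1.56 to -0.85, and short bars mark the means of the 3 wild type and the 3 ebs arrays. The shl-2 arrays of YAB5 lie with wild type, while those of AT2G19650 lie below the ebs arrays.

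TINY2, a gene of the AP2/ERF family of DNA-binding factors, was among the lowered ones. It read 4.92, 5.26 and 5.07 on the wild type arrays, 3.99, 4.06 and 3.97 on the ebs arrays and 4.12, 4.18 and 4.15 on those of shl-2, a difference of -1.08 (SE 0.09, limma adjusted p = 0.000373). bHLH34, a bHLH factor gene, fell by 0.75 (SE 0.10, limma adjusted p = 0.00339) from 7.06, 7.26 and 7.27 to 6.41, 6.61 and 6.32. AT1G22490, annotated as bHLH94, rose by 0.80 (SE 0.11, limma adjusted p = 0.00533) from 4.55, 4.47 and 4.72 to 5.19, 5.53 and 5.41.

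Some genes of the epidermis were lowered. SPCH, the factor that starts the stomatal lineage, read 6.57, 6.79 and 6.94 on the wild type arrays, 6.16, 6.04 and 5.78 on the ebs arrays and 6.35, 6.35 and 6.51 on those of shl-2, a difference of -0.77 (SE 0.12, limma adjusted p = 0.0089). Of the 3 measured markers of epidermis and guard cells SPCH was the 1 called, and the list had a median of -0.22 and a range of -0.77 to 0.21. GIS and ATMYC1 below are not on that list and were placed here after their values were seen. GIS, a zinc finger gene of trichome initiation, fell by 0.88 (SE 0.12, limma adjusted p = 0.00388) from 6.23, 6.63 and 6.44 to 5.65, 5.35 and 5.65. ATMYC1, a bHLH factor gene of trichome patterning, read 6.40, 6.38 and 5.97 on the wild type arrays, 5.82, 5.66 and 5.59 on the ebs arrays and 6.33, 6.39 and 6.19 on those of shl-2. Its difference of -0.56 (SE 0.12, limma adjusted p = 0.0388) lost its call without wild type array 1 or 2, any one of the ebs arrays or shl-2 array 1 or 2, with an adjusted p up to 0.145. A change in the share of these cells was not tested.

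In some lowered genes the shl-2 arrays lay below the ebs arrays. AT3G52740 read 7.73, 8.18 and 8.16 on the wild type arrays, 7.18, 7.30 and 7.03 on the ebs arrays and 6.47, 6.81 and 6.21 on those of shl-2, and AT3G44450 read 8.37, 9.24 and 8.64, then 7.73, 8.00 and 7.80, then 7.52, 7.68 and 7.12. In neither gene did the 3 genotypes overlap, with ebs between the others. Their differences in ebs were -0.85 (SE 0.16, limma adjusted p = 0.0242) and -0.91 (SE 0.21, limma adjusted p = 0.0488), while ebs minus shl-2 was 0.67 and 0.40 without a call (limma adjusted p = 0.117 and 0.553). The call of AT3G52740 ended without wild type array 2 or 3 or ebs array 1 or 3 (limma adjusted p up to 0.104), and that of AT3G44450 also without ebs array 2 or shl-2 array 1 or 2 (up to 0.154). AT2G19650 read 6.69, 7.25 and 7.0 on the wild type arrays, 6.12, 6.10 and 6.12 on the ebs arrays and 5.28, 5.34 and 5.42 on those of shl-2. It fell by 0.87 (SE 0.12, limma adjusted p = 0.00557), and ebs stayed above shl-2 by 0.77 (limma adjusted p = 0.0206), a call lost without any one of the ebs arrays or shl-2 array 1 or 2 (up to 0.101).

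A few genes of sugar transfer and of flavonoid synthesis were lowered. Of 45 measured UDP-glycosyltransferase genes 4 were lowered and none was raised (median -0.10), beside 1.26% lowered and 1.56% raised of all measured named genes. Besides the auxin enzymes above, these were UGT76E11 at -0.79 (SE 0.14, limma adjusted p = 0.0144, and up to 0.0634 without wild type array 2 or ebs array 3) and UGT73C1 at -0.90 (SE 0.18, limma adjusted p = 0.0306). UGT73C1 lost its call without wild type array 1 or 2, ebs array 2 or 3 or shl-2 array 2, with an adjusted p up to 0.124. The 45 were matched by symbol or synonym, so genes known here by a locus identifier alone, such as AT4G14090 below, were not counted. All 8 measured flavonoid and anthocyanin genes had negative differences (median -0.58), and 2 were called. That list was written with earlier results of these data known, so its count and median were set in part by the choice of members. Over all probe sets tested, 12746 of 22746 had negative differences (median -0.02). AT4G14090, a member of this list by its locus, read 7.19, 7.24 and 7.23 on the wild type arrays and 6.5, 6.5 and 6.18 on the ebs arrays, a difference of -0.83 (SE 0.15, limma adjusted p = 0.0216), lost without wild type array 2 or 3 or ebs array 1 or 3, with an adjusted p up to 0.0909. AT5MAT, an anthocyanin acyltransferase gene, fell by 0.70 (SE 0.16, limma adjusted p = 0.0488), lost without wild type array 2 or 3, any one of the ebs arrays or shl-2 array 1 or 2, with an adjusted p up to 0.162.

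Lowered genes of other chromatin proteins, grouped after their values were seen, changed by small amounts. PKDM7D, a jumonji-type histone demethylase gene, fell by 0.51 (SE 0.12, limma adjusted p = 0.0495), CHR23, a chromatin remodelling ATPase gene, fell by 0.47 (SE 0.10, limma adjusted p = 0.0352), and UBP26, a histone deubiquitinating enzyme gene, fell by 0.38 (SE 0.09, limma adjusted p = 0.0471). None of the 3 held in all leave-one-out fits. PKDM7D lost its call in 7 fits (all but those lacking wild type array 1 or shl-2 array 3, adjusted p up to 0.173) and UBP26 in 8 (all but that without shl-2 array 3, up to 0.157). Repeated quantile normalization also ended the calls of PKDM7D and UBP26, and median centring that of UBP26. CHR23 lost it without wild type array 1 or 2, ebs array 1 or 3 or shl-2 array 2 (up to 0.134). The 3 genes measured from a broader chromatin list and the 5 measured histone genes were not called (medians -0.02 and 0.15).

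**Figure D5:**
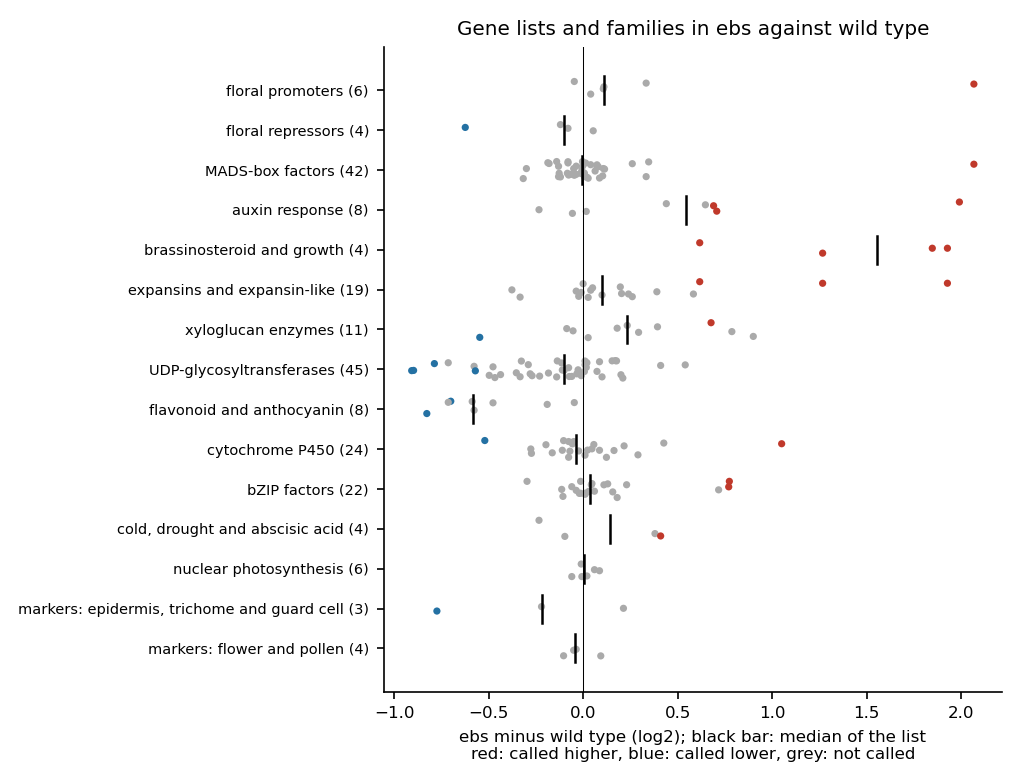
Each point is the log2 difference of ebs minus wild type of 1 measured gene, in rows for 15 lists and families with the number measured in brackets; red and blue mark genes called higher and lower, grey those not called, and black bars the medians. The brassinosteroid and growth list has its median at 1.56 and the flavonoid list at -0.58, and most other medians lie near the line at 0. The lists were written with earlier results of these data known.

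Most other lists held no called gene, which covers only the members matched. No call was made among 6 nuclear photosynthesis genes (median 0.01), 4 gibberellin genes (-0.05), 3 genes of the clock and light (-0.13), 3 iron and metal genes (-0.51) or 3 glucosinolate genes (0.02). The clock and light list matched neither COR27 nor AFR, both called above. It also did not match AT3G52740 and AT3G44450, which are known here by a locus identifier alone. Its 3 genes therefore do not stand for light and clock genes as a whole. The 4 jasmonate genes and the 4 senescence genes all had positive differences without a call, with medians of 0.29 and 0.39. Of the 69 plastid-encoded genes measured, rpl32 was the 1 called (median -0.13). Among markers of other organs, none of the 4 measured for flower and pollen (median -0.04), the 2 for root (0.22) and the 2 for phloem (-0.06) was called. No seed or xylem marker was matched by locus, symbol or synonym, so these markers were not examined. The 3 measured reference genes were not called (median 0.01).

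Probe sets without a gene name made up 334 of the calls, 3.83% of the 8730 unnamed ones, with 173 raised and 161 lowered. At least 2-fold changes numbered 54 and 17. The probe set 248494_at read 4.34, 4.34 and 4.80 on the wild type arrays, 6.87, 7.24 and 6.65 on the ebs arrays and 4.67, 4.65 and 4.80 on those of shl-2. Its rise of 2.43 (SE 0.16, limma adjusted p = 0.000111) was also a rise over shl-2, by 2.21 (limma adjusted p = 0.000268). The probe set 266814_at read 5.74, 3.92 and 5.69 on the wild type arrays, 7.23, 7.12 and 7.38 on the ebs arrays and 7.17, 7.44 and 7.28 on those of shl-2, so both mutants were high and wild type array 2 was low. It rose by 2.13 (SE 0.39, limma adjusted p = 0.0192, and up to 0.075 without ebs array 1 or 3). On the lowered side, 262543_at read 7.73, 7.52 and 7.59 on the wild type arrays, 5.89, 5.69 and 5.89 on the ebs arrays and 7.40, 7.32 and 7.24 on those of shl-2. It fell by 1.79 (SE 0.09, limma adjusted p = 4.45e-05) and lay -1.50 from shl-2 (limma adjusted p = 6.53e-05), while shl-2 stayed close to wild type. The probe set 264091_at went from 8.07, 8.11 and 8.06 to 6.86, 6.68 and 6.62, with shl-2 at 6.67, 6.72 and 6.43, a difference of -1.36 (SE 0.09, limma adjusted p = 0.00016).

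Called named genes were spread over the genome. On chromosomes 1 to 5 the share of measured genes called was 2.79%, 2.07%, 2.94%, 3.67% and 2.72%. Among 13211 pairs of measured genes next to each other, both were called in 9. In 5 of these pairs the members moved the same way, among them AT1G31690 with AT1G31710 and AT4G33980 with AT4G33985, and in 4 they moved oppositely, among them GH9C2 with AT1G64405 and AFR with AT2G24550.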

How the data were processed

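The deposited log2 values come from RMA (affy), per the submitters' processing notes; the sources used here give no version, filter or genome build. The 64 AFFX controls among the 22810 probe sets were dropped. Genes came from the platform annotation, updated to RefSeq names: 13513 probe sets named 1 gene, 503 several and 8730 none. limma 3.58.1 in R 4.3.3 fitted a mean per genotype to all 9 arrays (lmFit, contrasts.fit, eBayes), with two-sided tests, Benjamini-Hochberg adjustment over 22746 probe sets and calls at an adjusted p under 0.05. The script was tested on simulated data. Members and lists were chosen with earlier results of these data known. The naming rule covers the 25 highest and 25 lowest genes, leading list members, 10 bright genes each way and extreme unnamed probe sets; not all of them are named, and others were picked after their values were seen. Roles are general background, and genes with a locus identifier alone get none. Text patterns for AP2/ERF, ubiquitin ligase, defensin and chromatin modifier groups, and the symbol FDH, matched unrelated genes and were not used. No sequence was used.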

Additional observations from a re-analysis of the deposited data

How the results depend on the processing

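Of 146 called genes and unnamed probe sets followed, none turned direction with 1 array left out or under the other alternatives that gave each a value (141 to 146 of them). Calls between ebs and wild type (726, of them 391 higher and 335 lower) became 1129, 592 and 537 with array weights, 370, 208 and 162 with 1 probe set per named gene, 212, 133 and 79 at an adjusted p under 0.01, and 144, 116 and 28 at 2-fold or more. Leaving out 1 array gave 264 to 838 calls, 157 to 442 higher and 99 to 396 lower, and the lowest counts came without wild type array 2 (265) or ebs array 1 (264). Calls made in all 9 such fits numbered 209. Between ebs and shl-2 the 175 calls became 364 with array weights, 84 with 1 probe set per gene, 51 at 0.01 and 45 at 2-fold, and 64 to 190 without 1 array, with fewest without ebs array 1 (64) or 3 (98) or shl-2 array 1 (84) or 2 (104). The cause was not tested, except that the stricter thresholds and the single probe set per gene admit fewer features. Apart from the replicate block described below, the other alternatives gave 541 to 782 calls against wild type. In their deviations from the group means, same-numbered pools correlated at 0.271, 0.460 and -0.108 for wild type and ebs, 0.405, 0.212 and 0.171 for wild type and shl-2, and 0.228, 0.156 and -0.285 for ebs and shl-2. Since 1 pair of wild type and ebs was below 0.1, the numbers were not taken to pair samples. With the replicate block 898 probe sets were called (512 higher, 386 lower), including 651 of the 726, and 248 between ebs and shl-2. Of the 146, 139 kept their call under the block and 108 in a fit of the 6 wild type and ebs arrays. The fit of 6 arrays ended the calls of AT1G48100, AT3G15450, AT3G44450, AT5MAT, ATMYC1, CHR23, COR27, COR47, CSLA03, EXLB1 and GSTF4. It also ended those of PKDM7D, PUB26, RR16, SMZ, UBP26, UGT73C1, UGT74D1, WES1, WRKY22 and the probe set 266814_at. Among genes named in the text COR47, EXLB1 and PKDM7D lost it under the block, EXLB1 and UBP26 with median centring, and AT3G44450, EXLB1, PKDM7D and UBP26 with repeated quantile normalization. SMZ and UBP26 lost it with trended variance, AT1G31690, AT3G15450 and the probe set 266814_at with robust variance, and SMZ with array weights. Signals in the dimmest bin, where 25 raised and 3 lowered probe sets lie, limit what falls can be seen.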
